A study of Homo sapiens with 6 samples.

Results

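Solute carriers are membrane proteins that move amino acids, sugars, ions, transmitters and metabolites across the plasma membrane, synaptic vesicle membranes and the inner mitochondrial membrane. In the forebrain they take up released transmitter, load synaptic vesicles, set neuronal chloride and feed radial glia and neurons. The genes described here are those of families 1 to 25, chosen by symbol among protein-coding RefSeq genes of GRCh38.p14 (SLC, a number from 1 to 25, then a letter). The rule gave 237 of 19974 protein-coding genes on chromosomes 1 to 22 and X, and 3 of the 237 (SLC2A4RG, SLC4A1AP and SLC7A6OS) carry such a symbol without encoding a transporter. Binding of GSX2, a homeodomain factor that patterns lateral ganglionic eminence progenitors and binds DNA, was then read from the peaks whose strongest summit had one of these genes as the nearest protein-coding span. The peak positions chose the regions, so the assignment itself is a description.

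The data were 3 replicate peak lists of chromatin immunoprecipitation with the M2 antibody against FLAG. All came from H9 human embryonic stem cells of genotype TRE3G 2xFLAGGSX2 WT, in which doxycycline switches on a tagged wild-type GSX2 transgene. The cells had been differentiated toward the lateral ganglionic eminence (LGE-like), received doxycycline at 100 ng/mL for 12 hours from day 10 and were taken at day 10.5. The tagged protein came from the transgene, and no immunoprecipitation from cells lacking it was analysed here. The Input samples of the same cells have no values here, so there was 1 group and no contrast between conditions. The files hold no RNA, so transporter expression and the identity of the cells were not measured. The lists held 9859, 7471 and 9122 peaks on the chromosomes used. Neither file nor label gives read numbers, so depth is unknown and a missing peak does not show absence of binding.

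GSX2 peaks of all 3 replicates were found at few solute carrier genes. Peaks of one gene were merged over replicates into regions where they had 1 bp or more in common, and one with a peak of every replicate is called shared. Of the 237 genes, 17 were nearest to a shared region (7.17%, 95% Wilson interval 4.53 to 11.2%), against 12.3% of all protein-coding genes. A further 23 genes had at best a region of 2 replicates, 31 had regions of 1 replicate only, and 166 had none. Counting a region of any replicate, 71 of 237 genes had one (30.0%), against 32.6% of all genes. Without replicate 2, which had the fewest peaks, 30 of the 237 genes had a peak of both other replicates in 1 region (12.7%), against 16.4% of all genes. Wilson intervals here and below cover counting error only, and the labels do not say whether the replicates are separate cultures.

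A gene with a long territory, the stretch over which it is the nearest protein-coding gene, collects more peaks by position alone. The median territory was 72.9 kb for solute carrier genes and 54.9 kb for all genes. Genes with a shared region had a median territory of 190.1 kb, those with a region of 1 or 2 replicates 143.7 kb, and those without any 53.1 kb. The share with a shared region was therefore set beside genes of like territory, in 4 equal classes of all protein-coding genes. In the first class, of territories up to 23.2 kb, 0 of 34 solute carrier genes had a shared region, against 1.29% of other genes. A count of 0 allows a share of up to 8.82% by a limit of 3 counts, and the 95% Wilson interval reaches 10.2%. In the second class 2 of 62 had one (3.23%), against 4.02% of other genes. In the third it was 4 of 82 (4.88%, against 9.31%), and in the last, from 139.3 kb upward, 11 of 59 (18.6%, against 34.7%). The Wilson intervals of solute carrier and other genes overlapped in the first 3 classes and did not in the last, and the first 2 classes hold too few solute carrier genes with a region to show a difference. The last class is wide, from 139.3 to 11289 kb, so its solute carrier and other genes need not match closely in territory. Its gap therefore cannot be read apart from territory length.

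**Figure D1:**
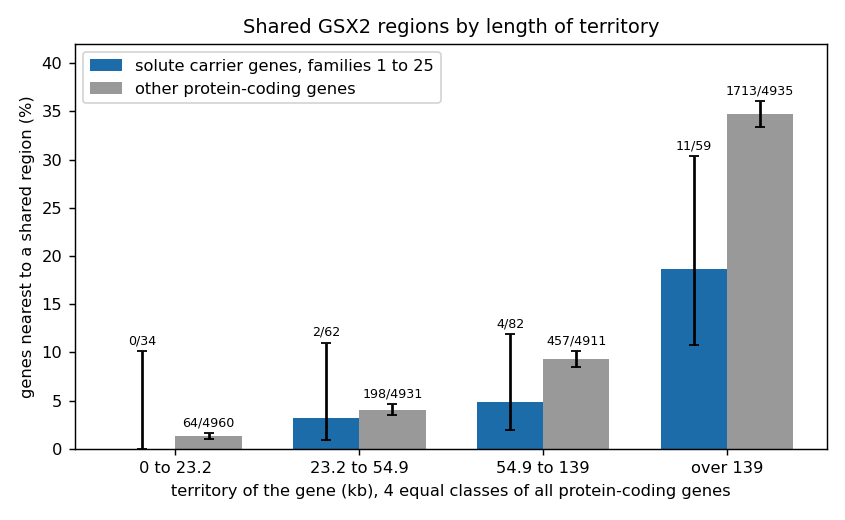
Share of genes nearest to a shared GSX2 region (y axis, percent) by class of territory length (x axis, kb), for solute carrier genes of families 1 to 25 (blue) and all other protein-coding genes (grey). Bars carry 95% Wilson intervals and the counts behind them; the gap is widest for territories of 139.3 kb or more, with 18.6% of solute carrier genes and 34.7% of other genes.

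With 20 bins of territory in place of 4, the 17 genes observed stood against 29.3 expected from the other genes of the same bins, a ratio of 0.581. Within single replicates the ratio was nearer to 1. Replicate 1 had peaks at 49 solute carrier genes against 62.1 expected, replicate 2 at 45 against 50.6 and replicate 3 at 51 against 60.0. The mean ratio was 0.843 ± 0.050 (SD, n = 3), below 1 in 3 of 3 replicates. The ratio was 0.846 for regions of any replicate and 0.807 for regions of at least 2. It was 0.721, 0.755 and 0.650 for regions common to both remaining replicates when replicate 1, 2 or 3 was left out. No test over samples was made, since 3 replicates of 1 group cannot give an exact paired permutation p under 0.25.

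For shared regions, 3 comparable gene groups stood closer to their expected numbers, which did not hold for all of them with regions of any replicate. No difference between groups was tested. Solute carrier genes of families 26 and above had a shared region at 12 of 149 genes, against 16.2 expected (ratio 0.743). The group called ionotropic transmitter receptor genes was taken by the start of the symbol (GRIA, GRIN, GRIK, GRID, GABR, GLR, CHRN, HTR3 or P2RX). Most such genes encode ligand-gated channels for glutamate, GABA, glycine, acetylcholine, serotonin and ATP. Not every match is such a channel, since GLR also admits glutaredoxin genes (GLRX). This group had a shared region at 13 of 75 genes, against 16.1 expected (0.810). Potassium channel genes, also taken by the start of the symbol (KCN), had one at 21 of 96, against 21.5 expected (0.976). The rule does not check that each of them encodes a channel. With a region of any replicate counted, the ratio was 1.08 for families 26 and above, 1.01 for receptors and 0.824 for potassium channels, the last below the 0.846 of families 1 to 25. Per single replicate, the mean ratio was 1.06 ± 0.14 for families 26 and above, 0.936 ± 0.124 for receptors and 0.891 ± 0.050 for potassium channels (SD, n = 3 each). The ranges of these single-replicate ratios overlap that of families 1 to 25 for the receptors and the potassium channels. The range of families 26 and above does not, its lowest value being 0.905 against a highest of 0.889. The replicates share fixed gene sets, so this spread leaves out counting error over genes and cannot separate the groups. The Wilson intervals of the shares, not matched for territory, overlapped. For shared regions they were 4.53 to 11.2% for families 1 to 25 and 4.67 to 13.5% for families 26 and above. For regions of any replicate they were 24.5 to 36.1% and 26.5 to 41.5%.

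**Figure D2:**
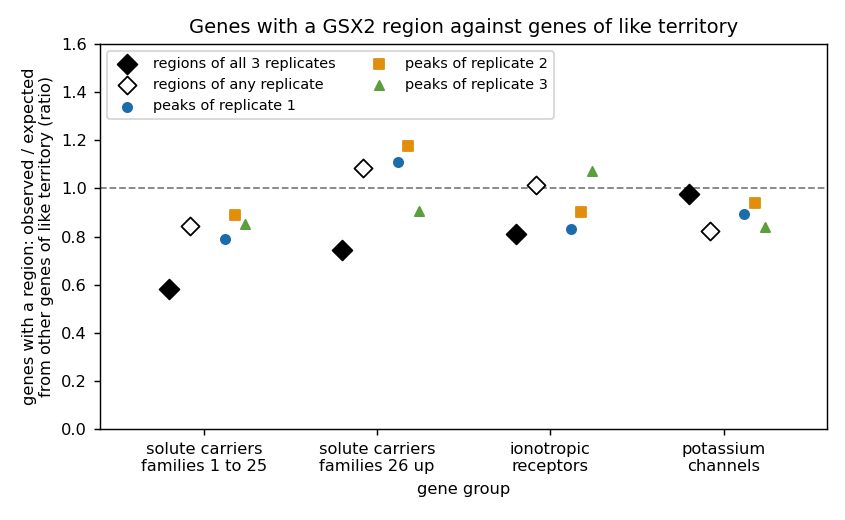
Observed genes with a GSX2 region over the number expected from other genes of like territory (y axis, ratio) for 4 gene groups (x axis). Black diamonds count regions of all 3 replicates, open diamonds regions of any replicate, and coloured symbols each replicate's own peaks; families 1 to 25 have the lowest black diamond (0.581), while their single replicates lie between 0.789 and 0.889.

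In all, 151 regions were assigned to solute carrier genes, of which 23 were shared (15.2%, 95% Wilson interval 10.4 to 21.8%). Over all protein-coding genes 3534 of 15750 regions were shared (22.4%). The share was 17.5% (11.2 to 26.3%) for families 26 and above, 26.5% for ionotropic receptor genes and 26.1% for potassium channel genes. The other solute carrier regions were 38 of 2 replicates and 90 of 1. Without replicate 2, the regions with peaks of both others numbered 44. All genes had 3534 shared regions and 1649 of replicates 1 and 3 only, beside 23 and 21 at solute carrier genes. Of a replicate's solute carrier peaks, 30.2% ± 6.5 (SD, n = 3) lay in a shared region, and of all its peaks 40.9% ± 6.1. Solute carrier peaks were the lower share in each of the 3 replicates: 26.1% against 35.9% in replicate 1, 37.7% against 47.7% in replicate 2 and 26.7% against 39.0% in replicate 3. The same 23 shared regions were counted in every replicate, so the solute carrier shares differed only through each replicate's number of peaks. The 3 comparisons and the SD are therefore not independent repeats. Of the 38 regions of 2 replicates, 21 were of replicates 1 and 3 (55.3%, against 46.2% of all such regions). Per Mb of territory there were 0.752 shared regions at solute carrier genes and 1.17 over all genes, while regions of any replicate numbered 4.94 and 5.20 per Mb. The like groups also had fewer shared regions per Mb than all genes. There were 0.963 for families 26 and above, 1.02 for ionotropic receptor genes and 0.963 for potassium channel genes.

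The shared regions at solute carrier genes were of ordinary strength. Fold enrichment is a linear ratio deposited by the authors, signal at the summit over the peak caller's background. The median over the 23 regions of the 3-replicate mean was 9.17, with a range from 5.43 to 15.6, against 9.49 over all shared regions. Of the 23, 11 lay above that overall median, 4 in the upper 25% of all shared regions (above 12.1) and 6 in the lower 25% (below 7.74). The highest ranked 375 among 3534. The median coefficient of variation between replicates was 21.4%, against 19.5% over all shared regions, so the order among most of these regions is not resolved. In 12 of the 23 every replicate had a −log10 q of 10 or more.

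**Figure D3:**
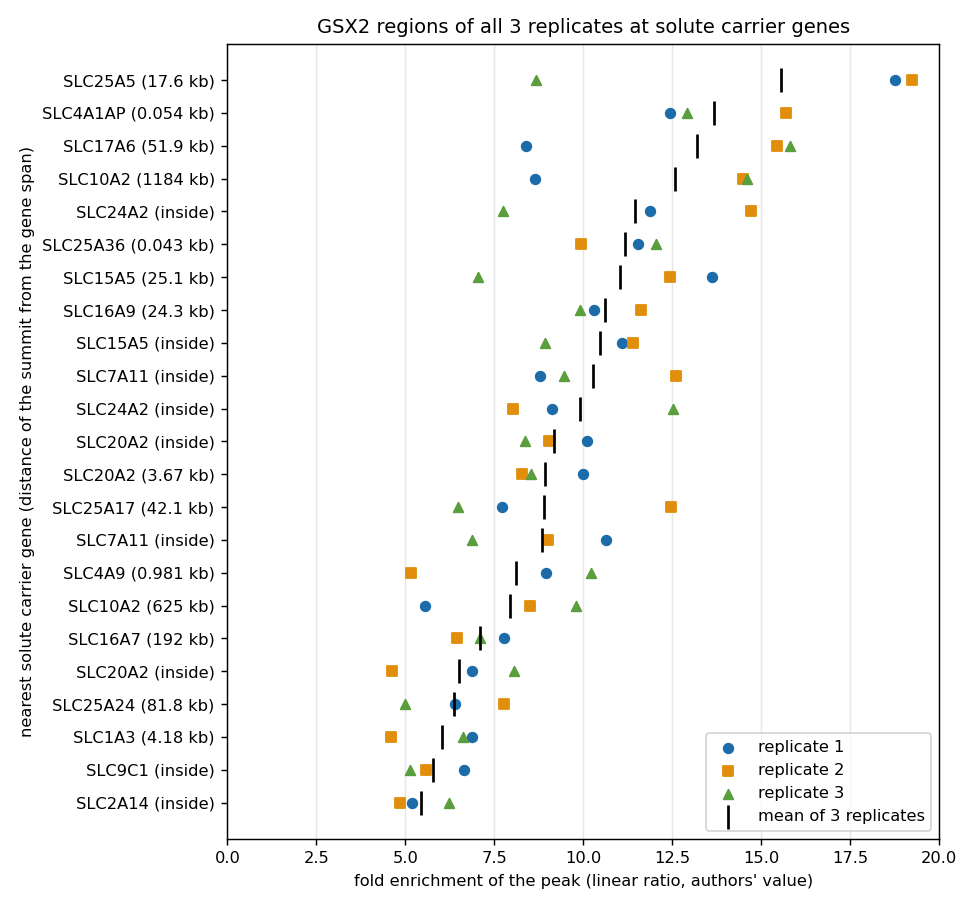
Fold enrichment (x axis, linear ratio) of the 23 shared GSX2 regions at solute carrier genes, by replicate (coloured symbols) with the mean (black bar), ordered by the mean; each row names the nearest gene and the distance of the summit from its span. Means run from 15.6 at SLC25A5 to 5.43 at SLC2A14, and the replicates of several regions, SLC25A5 and SLC17A6 among them, lie far apart.

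Most shared regions lay outside the genes. Of the 23, 9 were inside the span (39.1%, 95% Wilson interval 22.2 to 59.2%), against 51.6% of all other shared regions. A low share inside was not particular to these genes. It was 29.4% of 17 shared regions for families 26 and above, 30% of 30 for potassium channel genes and 50% of 22 for ionotropic receptor genes. Another 11 were outside within 100 kb (47.8%, against 27.7%), and 3 lay farther away (13.04%, against 20.62%). Within 1 kb of either end of the gene there were 2 regions (8.70%, 2.42 to 26.8%), against 7.29%. By genes, 2 of 237 had a shared region within 1 kb of an end, SLC4A1AP and SLC25A36, while 1.29% of all genes had one.

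Both of these covered the stretch just before the gene's start, the only shared solute carrier regions found over a promoter window. Windows run from 250 bases before to 50 after a RefSeq start, and 185 of the 237 genes have an entry, as do the genes of 18 of the 23 shared regions. The 250 bases before the start are shown from RefSeq (GRCh38.p14, plus strand in both cases) because the whole of each lay under a region. Capitals mark the homeodomain core TAAT and its reverse complement ATTA.
SLC25A36, chr3:140941586-140941835: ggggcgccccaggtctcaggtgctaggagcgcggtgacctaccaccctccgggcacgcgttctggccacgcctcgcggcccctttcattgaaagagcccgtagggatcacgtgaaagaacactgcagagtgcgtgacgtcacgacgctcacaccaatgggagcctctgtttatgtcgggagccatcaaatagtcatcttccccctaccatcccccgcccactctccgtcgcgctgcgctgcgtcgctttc
SLC4A1AP, chr2:27663639-27663888: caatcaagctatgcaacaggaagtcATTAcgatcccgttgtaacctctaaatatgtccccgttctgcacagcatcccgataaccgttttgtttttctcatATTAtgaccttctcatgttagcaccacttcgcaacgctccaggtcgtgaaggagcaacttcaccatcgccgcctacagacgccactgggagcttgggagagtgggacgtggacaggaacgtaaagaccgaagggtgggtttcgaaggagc
The SLC4A1AP stretch held 2 matches and the SLC25A36 stretch, with a GC content of 62.8%, held 0. Over the windows of all protein-coding genes, TAAT or ATTA stood in 42.7% and the longer palindrome TAATTA, which contains both, in 3.39%. In the 143 windows of any gene under a shared region the shares were 77.6% and 13.99%. The windows of all solute carrier genes held TAAT or ATTA in 47.8% and TAATTA in 3.56%. The sequence under regions away from gene starts was not analysed here.

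SLC25A36, a mitochondrial carrier of pyrimidine nucleotides, had fold enrichments of 11.5 in replicate 1, 9.95 in replicate 2 and 12.0 in replicate 3. The mean was 11.2 ± 1.1. Values of other shared regions follow the same order, and each ± is the SD over n = 3. Its median summit lay 57 bases before the start. SLC4A1AP, whose product is an adaptor protein and no transporter, had 12.4, 15.7 and 12.9 (13.7 ± 1.8), and its median summit lay 67 bases before the start. The gene SUPT7L lies 0.21 kb from the same summit, so the region cannot be given to either gene alone. A region at SLC4A9, a gene of the bicarbonate transporter family, lay 1.05 kb before the start, with 8.94, 5.15 and 10.2 (8.10 ± 2.63). The 2 regions over gene starts were among the more even of the 23 between replicates, while that at SLC4A9 varied more.

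Among the transporters of neural cells, 5 of 55 genes listed by role had a shared region (9.09%, 95% Wilson interval 3.95 to 19.6%), against 12.3% of all protein-coding genes. From genes of like territory 10.7 were expected (19.5%, just inside that interval), a ratio of 0.467. In each single list by role the expected share also lay inside the list's Wilson interval. The 5 genes were SLC17A6, SLC24A2, SLC7A11, SLC16A7 and SLC1A3. Another 10 had at best a region of 2 replicates, 9 of 1 replicate, and 31 none. With a region of any replicate counted, 24 of 55 had one (43.6%, against 32.6% of all genes), with 25.8 expected (ratio 0.931). Asking for both remaining replicates, 8 of the 55 genes qualified without replicate 1 (14.5%, against 14.4% of all genes). Without replicate 2 it was 11 (20%, against 16.4%), and without replicate 3 it was 6 (10.9%, against 14.7%). These shares of all genes are not matched for territory, whose median was 121.5 kb for neural and 54.9 kb for all genes. The solute carrier genes outside these lists had a shared region at 12 of 182 against 18.6 expected (ratio 0.647).

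**Figure D4:**
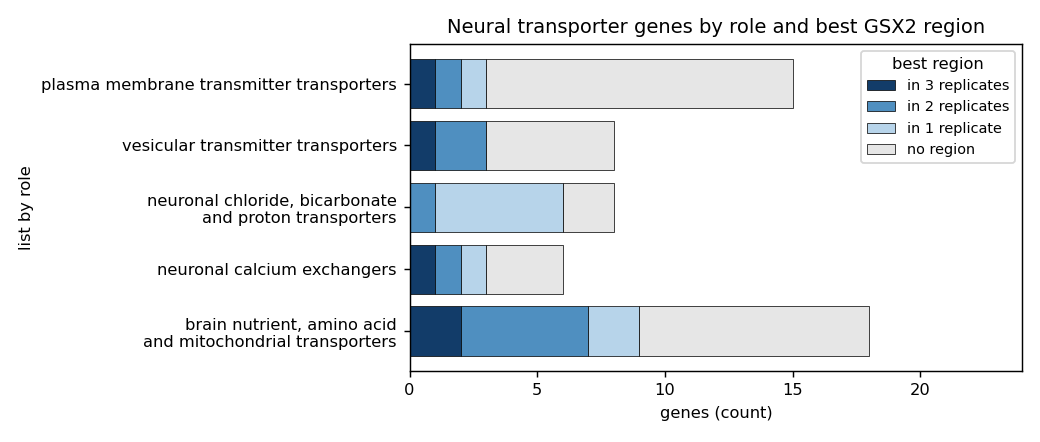
Neural transporter genes (x axis, count) in 5 lists by role, split by the number of replicates in the gene's best GSX2 region. Dark segments (3 replicates) hold 1, 1, 0, 1 and 2 genes from the top list to the bottom, and 12 of the 15 plasma membrane transmitter transporters have no region in any replicate. The 3 that have one stand against 6.12 expected from genes of like territory.

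The strongest neural region was nearest to a vesicular glutamate transporter gene, the 1 of 8 vesicular transporter genes with a shared region, against 0.674 expected. SLC17A6 loads glutamate into synaptic vesicles and marks subcortical excitatory neurons. Its region at chr11:22431264-22431583 lay 51.9 kb beyond the gene span and 93.1 kb downstream of the nearest start, with fold enrichments of 8.38, 15.4 and 15.8 (13.2 ± 4.2). Replicate 1 was the low one. A second region, 87.4 kb from the span, had peaks of replicates 1 and 3 only (10.4 and 8.76). SLC17A8, another vesicular glutamate transporter gene, held a region of replicates 2 and 3 inside its span (9.69 and 8.10), and SLC17A7, the main form of cortical excitatory neurons, had none. SLC18A1, a vesicular monoamine transporter gene, had weak peaks of replicates 1 and 2 (4.68 and 4.84) 6.56 kb away. The vesicular amine and acetylcholine transporter genes SLC18A2 and SLC18A3, SLC17A9 and SLC6A17 had no peak in any replicate.

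Of the plasma membrane transmitter transporters, 1 of 15 had a shared region, against 1.88 expected. SLC1A3 encodes the glutamate transporter GLAST of radial glia and astrocytes. Its shared region at chr5:36692476-36692832 lay 4.18 kb beyond the span and within the noncoding gene SLC1A3-AS1, and was among the weakest of the 23, with 6.87, 4.60 and 6.63 (6.03 ± 1.24). SLC1A3 also had regions of replicates 1 and 3, one inside the gene (8.79 and 8.40) and one 56.5 kb away (5.77 and 4.76), and a peak of replicate 3 alone 2.17 kb away (4.52). The inside region was higher in both replicates than the shared one, but replicate 2 had no peak there. SLC1A1, a neuronal glutamate transporter gene, had a peak of replicate 3 alone (6.56), and SLC6A5, a glycine transporter gene, had weak peaks of replicates 1 and 3 inside its span (5.53 and 4.48).

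The GABA uptake genes SLC6A11, SLC6A12 and SLC6A13 were nearest to no peak in any replicate, nor was any of the 3 monoamine uptake genes SLC6A2, SLC6A3 and SLC6A4. The same held for the glutamate transporter genes SLC1A2, SLC1A6 and SLC1A7, the glycine transporter gene SLC6A9 and the choline transporter gene SLC5A7. Having no peak was the commoner state of a gene, since 32.6% of all protein-coding genes had a region of any replicate. The nearest shared region of any gene lay 1360 kb from SLC1A2, the main astrocytic glutamate transporter. It lay 80.6 kb from SLC6A12 and 89.6 kb from the serotonin transporter gene SLC6A4. Over the 31 neural genes without a peak this distance ran from 79.0 kb at SLC18A2 to 2845 kb at SLC6A8, with a median of 466.5 kb. Those 31 were picked for having no peak, which leaves out every gene with a region of its own. Over all 55 neural genes the median was 318.4 kb. Over all 237 solute carrier genes, the median distance to a shared region of any gene was 355.9 kb, against 307.6 kb over all protein-coding genes.

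Among genes for neuronal chloride, bicarbonate and protons, 0 of 8 had a shared region, against 2.31 expected, and 6 had a peak in some replicate. SLC12A5 and SLC12A2 encode the cotransporters that lower and raise neuronal chloride. Each had a single peak of replicate 3, SLC12A5 inside the gene (7.95) and SLC12A2 at 11.6 kb (6.07). SLC9A9, an endosomal sodium/proton exchanger gene, had the strongest region of the list, inside its span, with 11.3 in replicate 2 and 8.10 in replicate 3. The bicarbonate transporter genes SLC4A4 (5.96 in replicate 1), SLC4A8 (7.69 in replicate 3) and SLC4A10 (5.06 and 4.96, both in replicate 1) had peaks inside their spans.

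Of 6 neuronal calcium exchanger genes, 1 had a shared region, against 2.39 expected. SLC24A2, a potassium-dependent sodium/calcium exchanger gene with a span of 800.4 kb, held 2. One at chr9:20083491-20083912 had 11.9, 14.7 and 7.75 (11.4 ± 3.5), and the other at chr9:19720453-19720670 had 9.12, 8.04 and 12.5 (9.89 ± 2.34). Replicate 3 was the lowest of the 3 in the first region and the highest in the second. SLC8A1, a sodium/calcium exchanger gene whose territory of 1342 kb is the longest of the 237, had 7 regions and none was shared. Its only region of 2 replicates had 5.34 in replicate 1 and 8.16 in replicate 3. SLC24A3 had a peak of replicate 1 (8.17) and another of replicate 2 (7.23).

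Of the 18 genes for brain nutrients, amino acids and mitochondrial supply, 2 had a shared region, against 3.44 expected. SLC7A11 encodes the cystine/glutamate exchanger. It held 2 shared regions inside its span, at chr4:138222903-138223493 with 8.78, 12.6 and 9.46 (10.3 ± 2.0) and at chr4:138182833-138183274 with 10.6, 9.001 and 6.86 (8.83 ± 1.89). Beside them stood 2 regions of 2 replicates and 2 of 1. SLC16A7, a monocarboxylate transporter gene of neurons, had a shared region 192.5 kb away, with 7.77, 6.44 and 7.09 (7.10 ± 0.67). The replicates lay close together. SLC16A7 also had a region of replicates 1 and 2 inside the gene (8.40 and 10.4).

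In the same list, regions of 2 replicates were found at the glucose transporter genes SLC2A1 (5.70 and 6.88 in replicates 1 and 3) and SLC2A3 (6.97 and 6.07 in replicates 1 and 3), at the inositol transporter gene SLC2A13 (7.29 and 9.89 in replicates 1 and 3) and at the amino acid transporter gene SLC7A5 (8.78 and 9.44 in replicates 1 and 3). SLC6A15, a neutral amino acid transporter gene of neurons, had more regions than any other member, 12 over a territory of 966.4 kb. Only 1 of them, 259.8 kb away, had peaks of 2 replicates (6.87 and 8.58 in replicates 2 and 3), and the other 11 were each seen in 1. The taurine transporter gene SLC6A6 had a peak of replicate 1 alone (7.81).

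Beyond the neural lists, the strongest solute carrier region was at chrX:119488872-119489156, 17.6 kb from SLC25A5, an adenine nucleotide translocator gene of the inner mitochondrial membrane. It had 18.8, 19.2 and 8.66 (15.6 ± 6.0), the widest relative spread of the 23, with replicate 3 far below the others. SLC25A43, another mitochondrial carrier gene, was 34.5 kb from the same summit. Mitochondrial carriers, the largest family with 48 genes, had 4 with a shared region, against 4.28 expected. The other 3 were SLC25A36, SLC25A17, a peroxisomal carrier gene (7.72, 12.5 and 6.48, mean 8.88 ± 3.15, 42.1 kb away), and SLC25A24, a calcium-regulated ATP carrier gene (6.39, 7.76 and 4.99, mean 6.38 ± 1.39, 81.8 kb away). At SLC25A17 the gene MCHR1 was 44.7 kb from the same summit and at SLC25A24 the gene VAV3 was 87.1 kb away, so the nearest gene there was decided by a few kb.

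SLC20A2, a sodium-coupled phosphate transporter gene, was the one member with 3 shared regions. Of these, 2 lay inside the gene, with means of 9.17 ± 0.88 and 6.52 ± 1.75, and 1 lay 3.67 kb outside it (8.93 ± 0.92). The gene VDAC3 was 6.86 kb from the summit of the outside region, so its nearest gene was decided by a few kb. In the stronger inside region the replicates had 10.1, 9.05 and 8.35. SLC15A5, a gene of the peptide transporter family, had 2, one inside the gene 6.16 kb downstream of its start (11.1, 11.4 and 8.93, mean 10.5 ± 1.3) and one 25.1 kb away (13.6, 12.4 and 7.03, mean 11.03 ± 3.51). SLC10A2, the ileal bile acid transporter gene, had 2 that lay far from it, at 1184 kb and 625 kb (12.6 ± 3.4 and 7.95 ± 2.17). The gene DAOA was 1215 kb from the summit of the farther one. Together the 5 genes with several shared regions, SLC7A11 and SLC24A2 included, held 11 of the 23.

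SLC16A9, a gene of the monocarboxylate family, had a region 24.3 kb away, the most even of the 23 between replicates, with 10.3, 11.6 and 9.90 (10.6 ± 0.9). SLC9C1, a sodium/proton exchanger gene of sperm, held a weak region inside its span (6.65, 5.59 and 5.12, mean 5.79 ± 0.78). SLC2A14 held the weakest (5.20, 4.84 and 6.24, mean 5.43 ± 0.72). SLC2A14 is a glucose transporter gene that arose as a copy of its neighbour SLC2A3, so short reads may be shared between them, and how the authors treated such reads is not given in the sources used here.

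Over the 24 families, 12 had at least 1 gene with a shared region and 12 had none. Families 6 and 22 were the largest without one. Family 6, of sodium- and chloride-coupled transmitter transporters, had 0 of 19 genes with a shared region against 2.23 expected, and 4 with a region of any replicate against 6.52. Family 22, of organic ion transporters best known from liver and kidney, had 0 of 21 against 2.10, and 3 with any region against 6.98. One of its members, SLC22A23, nevertheless had 4 regions of 2 replicates each, the strongest with 8.87 in replicate 1 and 10.8 in replicate 2. Families 3, 11, 19 and 23, with 2 or 3 genes each, had no peak in any replicate. Bicarbonate transporters (family 4) had 2 of 11 with a shared region against 2.39 expected, counting SLC4A1AP by its symbol, and 7 with any region against 5.18.

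**Figure D5:**
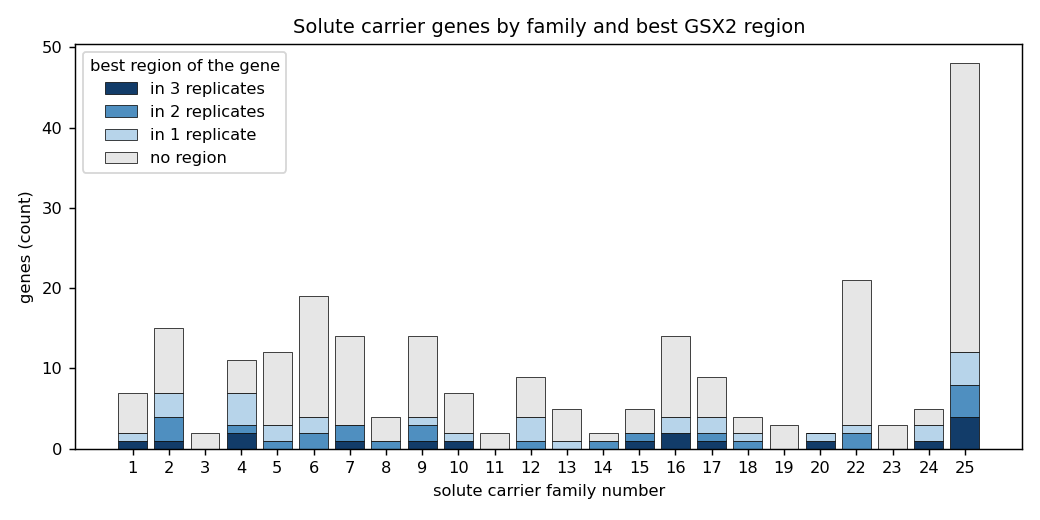
Number of solute carrier genes (y axis) in each of 24 families (x axis), split by the number of replicates in the gene's best GSX2 region. Families 6 and 22 reach 19 and 21 genes with no dark segment, and family 25 has 4 genes with a region of all 3 replicates.

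Regions on both sides of the 3-replicate rule overlapped in strength. The 3 weakest shared regions, at SLC2A14, SLC9C1 and SLC1A3, had means of 5.43, 5.79 and 6.03. The 3 strongest regions of 2 replicates, at SLC22A23, SLC7A1 and SLC9A9, had means of 9.83, 9.78 and 9.71 over the replicates that held them. SLC7A1, a cationic amino acid transporter gene, had 10.7 in replicate 1 and 8.83 in replicate 3.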

How the data were processed

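The submitters' processing notes list MACS3, Bowtie2, Trim Galore, deepTools and SAMtools with build hg38, without roles or order. Tool versions, settings and MACS3's control are not given in the sources used. Each replicate has its own peak list, as deposited. In the values the authors deposited, fold enrichment is a linear ratio, significance is −log10 p and −log10 q (smallest deposited −log10 q 3.00), and the deposited score, not used, is −log10 q times 10.

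Lines of 1 interval were reduced to the summit of highest fold enrichment, leaving 9936, 7535 and 9204 intervals, of which 77, 64 and 82 on other contigs or chromosome Y were left out. Each peak was given to the nearest protein-coding RefSeq span, and to the shortest of several holding the summit. Expected counts sum, over genes, the share of other genes hit in the same of 20 equal bins of territory length. The steps were tested on simulated data (Python 3.11.15, pandas 2.3.3, SciPy 1.17.1). Genes were named if in the neural lists with a peak, among the 20 with the strongest shared regions, with a shared region within 1 kb of a gene end, with 3 or more shared regions, or next to the replicate threshold. Some genes of the lists are counted but not reported here by name. Other neural genes, SLC22A23's further regions and the neighbours were named after their values were seen. Members and lists were chosen with earlier results of these data known. No reference genome was used.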

Additional observations from a re-analysis of the deposited data

How the results depend on the processing

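No test was made, so other settings bear on values only. With peaks of at least 2 replicates, 40 genes, 15 of them neural, and 61 regions qualified, with a ratio to expected of 0.807 and a median fold enrichment of 8.10. With a −log10 q of at least 10 these were 10 genes, 12 regions, 3 neural genes and a median of 10.5, and the ratio was 0.552. The shares of all genes and of all regions under both rules are not given here. Only the ratio sets the gene counts beside other genes, so the neural and region counts have no comparison. Joining summits within 100 bp gave a ratio of 0.510 and a median of 10.1, and regions within 100 kb a median of 9.53. Leaving out 1 replicate and asking for both others gave 23 to 30 genes, 31 to 44 regions, 6 to 11 neural genes, ratios of 0.650 to 0.755 and medians of 8.13 to 9.27. Those genes were 9.70 to 12.7% of the solute carrier genes, against 14.4 to 16.4% of all protein-coding genes. The ratio stayed below 1 under each setting tried. Without the genes that encode no transporter it was 0.548 (SLC2A4RG and SLC4A1AP) and 0.549 (SLC7A6OS also, added after seeing the data). With 10 or 100 territory bins it was 0.578 and 0.582. The cause of these moves was not tested, though leaving out a replicate asks for fewer peaks by construction. No paired analysis was possible because the Input samples, which share the replicate numbers, have no values here. Depth is unknown, so absence of a peak does not show absence of binding.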
